A study of Mus musculus with 18 samples.

Results

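Glycolysis and hypoxia-response genes were followed through the reprogramming of mouse embryonic fibroblasts (MEFs). The set was a given list of 36 genes, taken by symbol wherever they stood in the 2 deposited expression tables: 4 transporters of glucose and lactate, 17 glycolytic enzymes, 3 genes of the hypoxia-inducible factor (HIF) pathway and 12 HIF targets. The knockdown table held 35 of them among 9435 genes (all but *Ankrd37*), and the overexpression table held 34 among 9472 (all but *Ankrd37* and *Aldoc*). Of 661941 alternative splicing (AS) events in the splicing table, 1423 lay in these genes. Glycolysis splits glucose to pyruvate in the cytosol, and lactate dehydrogenase turns pyruvate into lactate, which leaves the cell through monocarboxylate transporters. HIF is a transcription factor whose alpha subunit is marked for degradation by prolyl hydroxylases when oxygen is present, and its targets include glucose transporters, most glycolytic enzymes and genes that restrain the use of pyruvate by mitochondria. A shift towards glycolysis is a known early feature of the reprogramming of fibroblasts.

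RNA-seq was performed on 18 libraries in 9 groups of 2. All cells were primary MEFs of the genotype Collagen-OKSM, M2rtta+, in which doxycycline switches on OCT4, SOX2, KLF4 and MYC (OSKM) through a transactivator. In the knockdown dataset, MEFs without virus were taken at day 0 (NI), and after 12 days of doxycycline came cells with lentivirus for a scrambled shRNA (shSCR), for 2 shRNAs against *Cpsf3* (shCPSF3#1, shCPSF3#2) and for 2 against *Hnrnpul1* (shUL1#1, shUL1#2). The overexpression dataset had an NI of its own and 2 retroviral groups from day 12, an empty vector (Empty) and T7-tagged TIA1 (T7-TIA1). CPSF3 is the nuclease that cuts pre-mRNA at the polyadenylation site, hnRNP UL1 is a nuclear RNA-binding protein, and TIA1 is an RNA-binding protein that helps U1 snRNP to 5′ splice sites. Every day 12 group had received virus, doxycycline and LIF, had been sorted for GFP on day 2 and had then grown on irradiated feeder fibroblasts, none of which applies to NI. A day 12 library can therefore hold feeder RNA, and a comparison with NI covers all of these differences at once. In such bulk samples, fewer cells of a type and less RNA per cell cannot be told apart. The time labels gave day 0 for shUL1#2 and day 12 for the overexpression NI, against the sample titles, which were followed. No label said that duplicates were separate cultures, so p-values measure the spread between these libraries.

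In each library the deposited values were whole multiples of 1 step. If that step is worth 1 read, which the values do not show, the listed genes held 98882289 to 109047542 reads per library. Levels are given as scaled CPM, read counts relative to library size after the authors' scaling between libraries. *Cpsf3* stood at 86.7 and 118 scaled CPM in shSCR, 38.6 and 49.99 in shCPSF3#1 and 42.4 and 77.1 in shCPSF3#2, *Hnrnpul1* at 156 and 185 in shSCR, 55.7 and 85.8 in shUL1#1 and 38.7 and 63.7 in shUL1#2, and *Tia1* at 85.6 and 77.04 in Empty and 613 and 469 in T7-TIA1. The summed level of the 16 fibroblast markers in the knockdown table was 22709 and 25248 in NI, 9329.95 and 6898 in shSCR, 18063 to 30434 in the shCPSF3 libraries and 15895 to 35109 in the shUL1 libraries. The 15 in the overexpression table summed to 25789 and 49953 in NI, 6417 and 7397 in Empty and 4075 and 4826 in T7-TIA1. Of 14 epithelial markers, 3 were in the knockdown table (*Krt8*, *Krt18*, *Krt19*), at a summed 62.4 and 49.9 in NI, 627 and 365 in shSCR and 46.2 to 276 in the knockdowns. None of 14 pluripotency markers was in either table. Every listed gene had at least 5 scaled CPM in 9 or more of the 12 knockdown libraries, or in all 6 overexpression libraries. Absence is therefore not lack of expression. Of 6 immune markers, 2 were in the table, at a summed 9.34 and 6.58 in NI, 51.7 and 39.1 in shSCR and 33.5 to 165 in the knockdowns, beside 1 of 5 endothelial markers at 1.15 and 1.51, 24.96 and 29.7 and 18.3 to 143 and 1 of 4 muscle markers at 54.1 and 54.8, 13.8 and 15.4 and 6.13 to 36.6. The 7 proliferation genes summed to 1907 and 2169.9 in NI, 958 and 1871 in shSCR, 272 to 1697 in the shCPSF3 libraries and 603 to 1447 in the shUL1 libraries.

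HIF binds DNA at a core of 5 bases, ACGTG or GCGTG, so the promoters of 5 members of different roles are shown: the glucose transporter *Slc2a1*, the enzymes *Pgk1* and *Ldha*, the prolyl hydroxylase *Egln3* and the mitophagy receptor *Bnip3*. Each run is the 250 bases before a RefSeq start on GRCm38.p6, 5′ to 3′ on the strand of the gene, with ACGTG or GCGTG on either strand in capitals. Of the RefSeq starts of *Ldha*, the one with the most ACGTG is shown, with 5 against 0 at the other. They lie at chr4:119108495-119108744 (plus strand), chrX:106186850-106187099 (plus), chr7:46845554-46845803 (plus), chr12:54203875-54204124 (minus) and chr7:138909507-138909756 (minus).
Slc2a1: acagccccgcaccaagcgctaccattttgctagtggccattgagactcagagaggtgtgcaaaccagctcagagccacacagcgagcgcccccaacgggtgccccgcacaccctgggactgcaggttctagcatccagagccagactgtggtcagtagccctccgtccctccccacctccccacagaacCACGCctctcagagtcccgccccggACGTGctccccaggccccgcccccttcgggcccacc
Pgk1: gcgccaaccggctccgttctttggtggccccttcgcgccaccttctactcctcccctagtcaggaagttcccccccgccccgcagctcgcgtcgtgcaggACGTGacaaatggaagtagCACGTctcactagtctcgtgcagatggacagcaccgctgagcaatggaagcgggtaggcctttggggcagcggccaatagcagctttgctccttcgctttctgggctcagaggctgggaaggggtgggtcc
Ldha: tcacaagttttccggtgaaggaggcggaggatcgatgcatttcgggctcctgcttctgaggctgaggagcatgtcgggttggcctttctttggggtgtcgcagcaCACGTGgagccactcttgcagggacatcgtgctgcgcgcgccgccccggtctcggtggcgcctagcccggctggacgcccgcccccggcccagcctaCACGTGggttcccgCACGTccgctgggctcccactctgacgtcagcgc
Egln3: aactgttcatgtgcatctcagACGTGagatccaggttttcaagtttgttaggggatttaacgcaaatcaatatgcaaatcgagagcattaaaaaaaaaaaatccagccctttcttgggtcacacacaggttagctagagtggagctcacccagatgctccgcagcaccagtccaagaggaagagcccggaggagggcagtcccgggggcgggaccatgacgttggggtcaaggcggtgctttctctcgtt
Bnip3: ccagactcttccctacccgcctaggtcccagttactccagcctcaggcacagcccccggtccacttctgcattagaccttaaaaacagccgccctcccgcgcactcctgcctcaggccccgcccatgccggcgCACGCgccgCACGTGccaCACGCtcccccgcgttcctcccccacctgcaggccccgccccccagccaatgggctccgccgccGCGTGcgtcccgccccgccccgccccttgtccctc
A RefSeq promoter was matched for 33 of the 36 members. A gene was counted when any of its RefSeq promoters held the motif. ACGTG stood on either strand in 21 of the 33 (63.6%) within these 250 bases, against 26.5% of 7502 genes of the knockdown table and 18.5% of all 27025 genes with a promoter. GCGTG stood in 23 of 33 (69.7%), against 53.2% and 30.9%. CACGTG, the E-box that contains ACGTG and is also bound by MYC, stood in 6 (18.2%), against 10.7% and 6.86%. Per promoter, ACGTG stood in 24 of 47 for the members (51.1%), against 16.6% of all 32851 promoters. Some of these genes are known as HIF targets through such motifs, so the shares describe the list. ACGTG stood in 11 of 19 members that rose in shSCR by day 12 and in 9 of 13 that did not pass.

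By day 12 most of the set stood higher in both control arms than in NI. In shSCR, 22 of 35 members rose and 0 fell (limma on log2(scaled CPM + 1), adjusted p under 0.05), where 22.5% of all genes rose and 22% fell. In Empty, 22 of 34 rose and 2 fell, where 22.8% of all genes rose and 23.6% fell. The set was chosen with earlier results of these data known, so its shares beside those of all genes, here and below, describe the list. The median log2 change of the members was 1.46 in shSCR and 0.98 in Empty, against 0.000495 and 0.0128 for all genes. Both shSCR libraries lay above both NI libraries for 28 members (38.7% of all genes), and both Empty libraries above both of theirs for 26 (37.6%). Of all scaled CPM in its table, the set took 1.02% and 1.02% in the NI libraries and 1.86% and 2.17% in the shSCR libraries, and in the overexpression dataset 1.08% and 0.983% in NI and 2.06% and 1.73% in Empty. Of the calls in shSCR, 15 of 22 passed under every alternative run, and in Empty 12 of 24. Without replicate 1 of Empty 13 members passed in that arm (15.6% of all genes). The fibroblast sum was lower at day 12 than in NI in both arms, and its part in these changes was not tested.

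**Figure D1:**
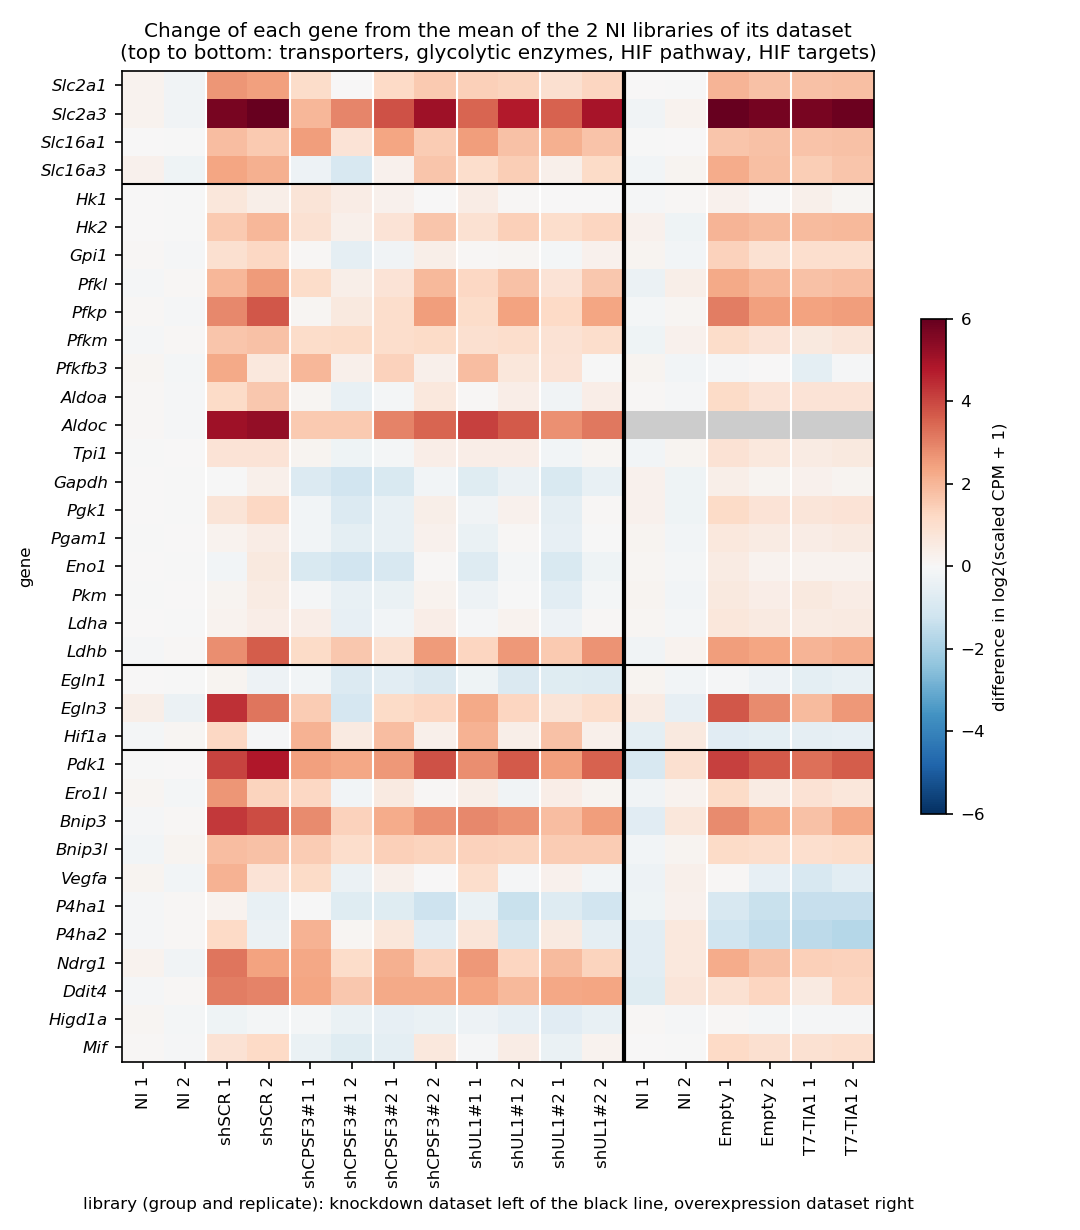
Difference of log2(scaled CPM + 1) from the mean of the 2 NI libraries of the same dataset, for each member (rows) in each of the 18 libraries (columns). Red is above NI and blue below, and grey marks *Aldoc*, which is not in the overexpression table. *Slc2a3* and *Aldoc*, at 6.04 and 5.17 in shSCR, are the darkest rows, and most rows are paler in the knockdowns than in shSCR.

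The set stood lower in both knockdowns than in shSCR. With CPSF3 knocked down (both shRNAs averaged), 17 of 35 members fell and 0 rose, where 9.35% of all genes fell and 16.7% rose. With hnRNP UL1 knocked down, 8 fell and 0 rose, where 3.15% of all genes fell and 7.31% rose. The median log2 change was -0.95 and -0.80, and 32 and 33 of 35 members had a change below 0 (47.9% and 49.6% of all genes). Both contrasts share the shSCR libraries with each other and with the change from NI. All 4 shCPSF3 libraries lay below both shSCR libraries for 21 members (14% of all genes), and all 4 shUL1 libraries for 25 (16.4%). The set took 0.759% to 1.44% of the table in the shCPSF3 libraries and 0.899% to 1.32% in the shUL1 libraries. With the replicate number as a block, 26 members fell with CPSF3 knocked down (22.6% of all genes) and 22 with UL1 knocked down (12.8%). Fitted on the groups compared alone, 1 member fell with CPSF3 knocked down (0.7% of all genes) and 3 with UL1 knocked down (0.223%). The counts also rested on the shSCR duplicates: in CPSF3 knockdown, 2 fell without replicate 2 of shSCR (1.47% of all genes) and 9 without replicate 1 (6.25%). In UL1 knockdown, 1 fell without replicate 2 of shSCR (0.435%), 4 without replicate 2 of shUL1#2 (1.54%), and 2 each without replicate 1 of shSCR, either library of shUL1#1 or replicate 1 of shUL1#2 (0.435% to 1.99%). *Aldoc* was the only member that fell in both contrasts under every alternative run. The fibroblast sum was higher and the epithelial sum lower in all knockdown libraries than in shSCR, and their part in these changes was not tested.

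**Figure D2:**
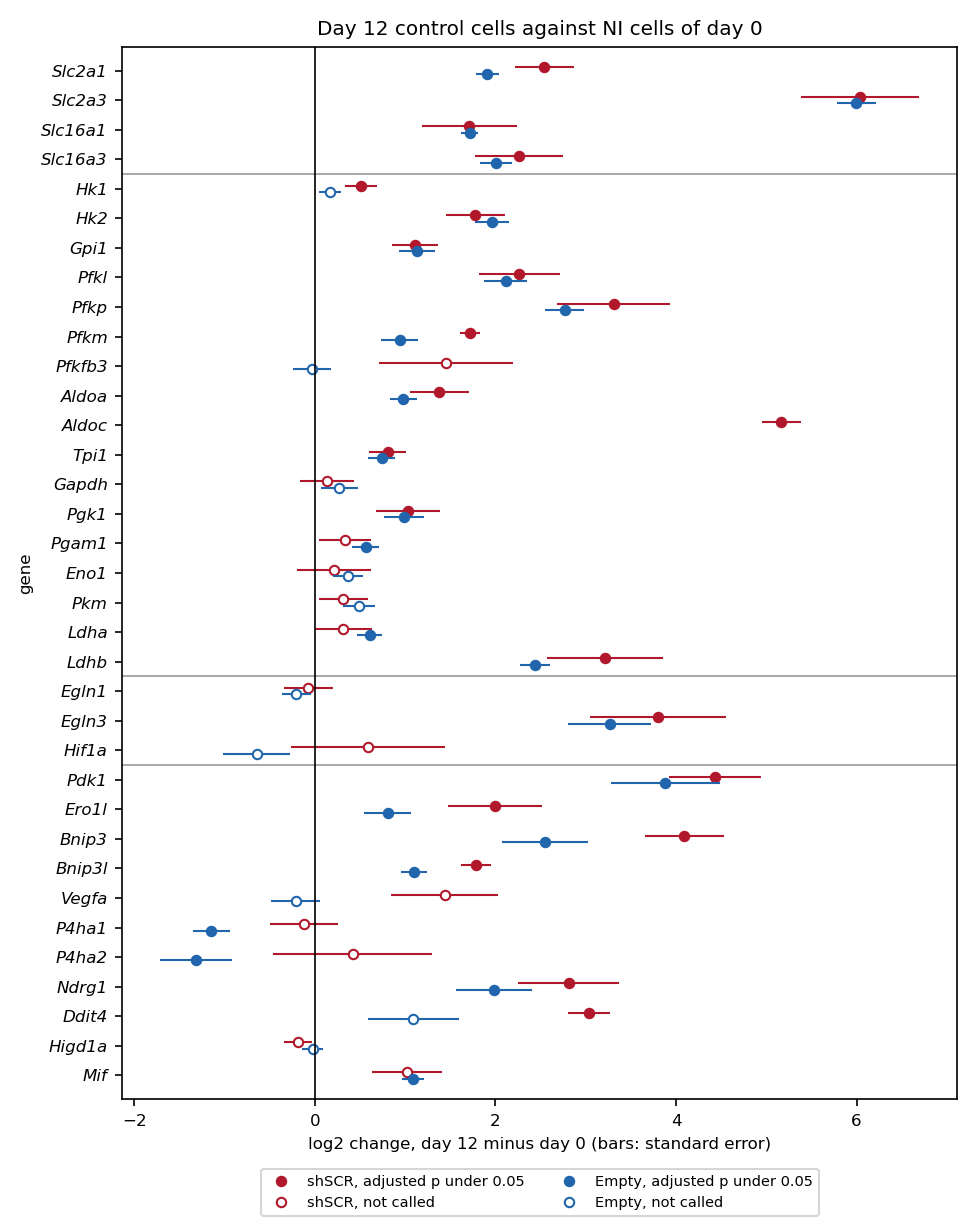
Log2 change of each member from day 0 to day 12 in shSCR and in Empty, with bars of 1 standard error; filled symbols passed the test and open symbols did not. *Slc2a3* lies farthest right, at 6.04 and 5.997, and *P4ha1* and *P4ha2* are filled below 0 in Empty.

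All 4 transporters rose in shSCR and in Empty, where 22.5% and 22.8% of all genes rose. *Slc2a1* encodes GLUT1, the widespread glucose transporter. It stood at 108 and 81.1 in NI, 587 and 513 in shSCR, 199 and 94.1 in shCPSF3#1, 218 and 277 in shCPSF3#2, 253 and 241 in shUL1#1 and 184 and 232 in shUL1#2. Every knockdown library lay below both shSCR libraries. *Slc2a1* rose in shSCR (2.54 ± 0.33, adjusted p = 0.000610; log2 change ± SE here and throughout) and fell with CPSF3 (-1.58 ± 0.28, adjusted p = 0.00772) and UL1 knocked down (-1.27 ± 0.28, adjusted p = 0.0297). In the overexpression dataset it stood at 107 and 106 in NI and 444 and 367 in Empty, and rose (1.91 ± 0.12, adjusted p = 0.000982).

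*Slc2a3* encodes GLUT3, a high-affinity glucose transporter of neurons and early embryos, and had the largest rise of the set in both arms. It stood at 16.1 and 11.7 in NI, 761 and 1228 in shSCR, 58.01 and 111 in shCPSF3#1, 209 and 507 in shCPSF3#2, 163 and 396 in shUL1#1 and 168 and 449.97 in shUL1#2. All 8 knockdown libraries lay below shSCR and above NI, with replicate 2 above replicate 1 in each group. It rose in shSCR (6.04 ± 0.65, adjusted p = 0.000284) and fell with CPSF3 knocked down (-2.57 ± 0.57, adjusted p = 0.0150). With UL1 knocked down it did not pass (-1.87 ± 0.57, adjusted p = 0.0728, or 0.00904 with the replicate block, and 0.00904 to 0.350 over the alternatives). In Empty it went from 8.49 and 11.3 to 819 and 580.02 (5.997 ± 0.22, adjusted p = 0.000677).

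The monocarboxylate transporters differed from each other in their values. *Slc16a3* encodes MCT4, the lactate exporter of glycolytic cells. It stood at 34.7 and 24.2 in NI, 154 and 132 in shSCR, 23.3 and 14.2 in shCPSF3#1, 34.9 and 95.3 in shCPSF3#2, 61.04 and 81.3 in shUL1#1 and 36.3 and 65.4 in shUL1#2. Both shCPSF3#1 libraries lay below both NI libraries. The gene rose in shSCR (2.26 ± 0.48, adjusted p = 0.00644) and in Empty (2.01 ± 0.18, adjusted p = 0.00143), fell with CPSF3 knocked down (-2.10 ± 0.42, adjusted p = 0.0111) and did not pass with UL1 knocked down (-1.27 ± 0.42, adjusted p = 0.0921). *Slc16a1* encodes MCT1, which carries lactate both ways. It stood at 70.4 and 65.96 in NI, 249 and 204 in shSCR, 395 and 122 in shCPSF3#1, 355 and 199.99 in shCPSF3#2, 396 and 235 in shUL1#1 and 301 and 228 in shUL1#2. Its level rose in shSCR (1.71 ± 0.53, adjusted p = 0.0301) and in Empty (1.72 ± 0.10, adjusted p = 0.000804). The knockdown libraries overlapped those of shSCR, at 0.10 ± 0.46, adjusted p = 0.878 for CPSF3 and 0.33 ± 0.46, adjusted p = 0.672 for UL1.

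**Figure D3:**
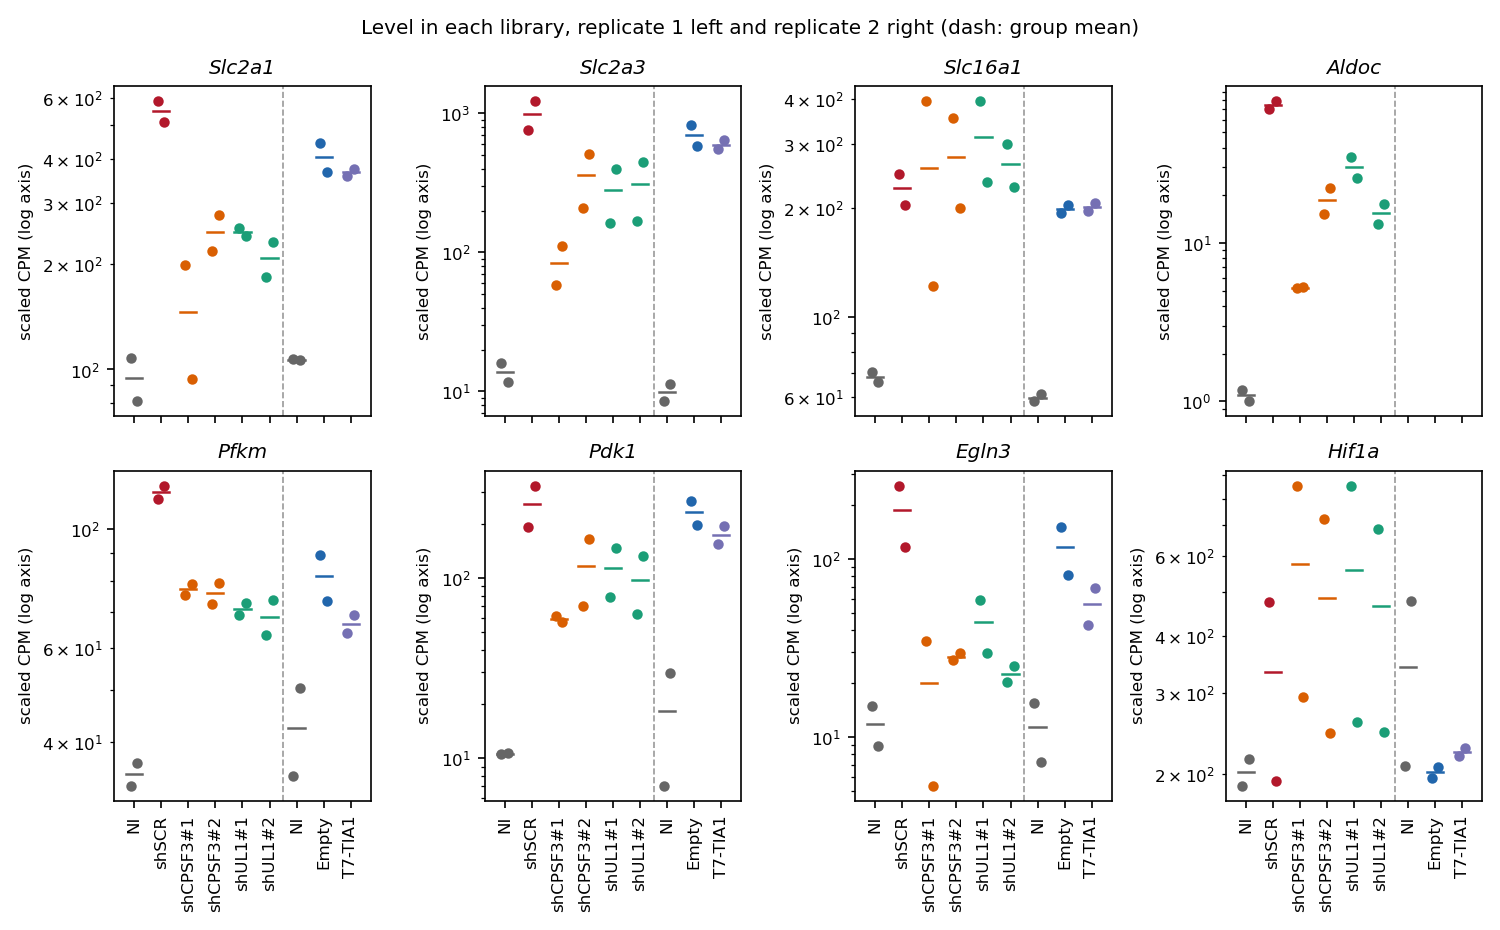
Scaled CPM of 8 members on a log axis in each of the 18 libraries, with replicate 1 left and replicate 2 right and a dash at the group mean; the dashed line parts the knockdown and overexpression datasets. *Slc2a3* is near 16.1 and 11.7 in NI and reaches 761 and 1228 in shSCR, with the knockdowns between.

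Of the 17 enzymes, 11 rose in shSCR: *Hk1*, *Hk2*, *Gpi1*, *Pfkl*, *Pfkp*, *Pfkm*, *Aldoa*, *Aldoc*, *Tpi1*, *Pgk1* and *Ldhb*. In Empty, 11 of the 16 in the table rose: *Hk2*, *Gpi1*, *Pfkl*, *Pfkp*, *Pfkm*, *Aldoa*, *Tpi1*, *Pgk1*, *Pgam1*, *Ldha* and *Ldhb*. With CPSF3 knocked down 8 fell (*Gpi1*, *Pfkp*, *Pfkm*, *Aldoa*, *Aldoc*, *Tpi1*, *Gapdh* and *Pgk1*), or 12 with the replicate block, and with UL1 knocked down 4 fell (*Gpi1*, *Pfkm*, *Aldoa* and *Aldoc*), or 10 with the block. The log2 changes of all 17 were below 0 in both contrasts, from -2.77 to -0.13 with CPSF3 and from -1.74 to -0.35 with UL1 knocked down. Of all genes, 47.9% and 49.6% were below 0. In shSCR 22.5% of all genes rose, and in Empty 22.8%. With CPSF3 knocked down 9.35% of all genes fell, or 22.6% with the block, and with UL1 knocked down 3.15%, or 12.8%.

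Hexokinase makes the first step, the phosphorylation of glucose. Per kilobase of exon, *Hk1* stood at 12.1 and 11.6 and *Hk2* at 12.1 and 11.7 scaled CPM per kb in NI, which overlap. In shSCR, *Hk2*, the isoform induced by HIF, stood at 35.2 and 48.4 per kb and *Hk1* at 18.8 and 15.3. In Empty *Hk2* stood at 45.6 and 41.9 per kb and *Hk1* at 17.7 and 15.8. *Hk2* rose in shSCR (1.78 ± 0.32, adjusted p = 0.00308) and in Empty (1.97 ± 0.19, adjusted p = 0.00159). *Hk1* rose in shSCR (0.51 ± 0.18, adjusted p = 0.0493) and did not pass in Empty (0.17 ± 0.12, adjusted p = 0.294). In the knockdowns neither passed: *Hk2* was at -0.85 ± 0.28, adjusted p = 0.0563, or 0.0264 with the replicate block, and 0.0207 to 0.357 over the alternatives for CPSF3 and -0.61 ± 0.28, adjusted p = 0.192 for UL1, and *Hk1* at -0.13 ± 0.16, adjusted p = 0.554 for CPSF3 and -0.37 ± 0.16, adjusted p = 0.163, or 0.0269 with the replicate block, and 0.0269 to 0.447 over the alternatives for UL1. *Gpi1*, which turns glucose-6-phosphate into fructose-6-phosphate, stood at 326 and 301 in NI, 618 and 744 in shSCR, 214 to 402 in the shCPSF3 libraries and 287 to 378 in the shUL1 libraries. It rose in shSCR (1.11 ± 0.26, adjusted p = 0.00971) and fell with CPSF3 (-1.19 ± 0.22, adjusted p = 0.00910) and UL1 knocked down (-1.03 ± 0.22, adjusted p = 0.0285).

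Phosphofructokinase commits the sugar to glycolysis, and all 3 isoforms rose. *Pfkl* went from 11.2 and 12.1 per kb in NI to 46.2 and 69.2 in shSCR, *Pfkm* from 9.93 and 10.97 to 34.003 and 36.02, and *Pfkp* from 4.11 and 3.65 to 29.4 and 51.9. *Pfkp* was the lowest of the 3 in NI, and its shSCR libraries overlapped the range of the other 2. In shSCR the rise was 2.26 ± 0.45, adjusted p = 0.00452 for *Pfkl*, 1.72 ± 0.11, adjusted p = 5.04e-05 for *Pfkm* and 3.31 ± 0.63, adjusted p = 0.00369 for *Pfkp*. In Empty it was 2.12 ± 0.24, adjusted p = 0.00234, 0.94 ± 0.20, adjusted p = 0.0148 and 2.77 ± 0.22, adjusted p = 0.00121. *Pfkm* stood at 33.2 and 36.7 scaled CPM in NI, 114 and 120.3 in shSCR, 75.3 and 78.9 in shCPSF3#1, 72.4 and 79.2 in shCPSF3#2, 69.2 and 72.7 in shUL1#1 and 63.5 and 73.5 in shUL1#2. All 8 knockdown libraries lay between NI and shSCR, and it fell with CPSF3 (-0.61 ± 0.10, adjusted p = 0.00571) and UL1 knocked down (-0.74 ± 0.10, adjusted p = 0.00737). *Pfkp* stood at 55.02 and 48.9 in NI, 394 and 695 in shSCR, 56.6 and 77.7 in shCPSF3#1, 110.5 and 303 in shCPSF3#2, 111 and 278 in shUL1#1 and 118 and 273 in shUL1#2. It fell with CPSF3 knocked down (-2.23 ± 0.54, adjusted p = 0.0211) and did not pass with UL1 knocked down (-1.55 ± 0.54, adjusted p = 0.107, or 0.0114 with the replicate block, and 0.0114 to 0.463 over the alternatives). *Pfkl* passed in neither knockdown (-1.20 ± 0.39, adjusted p = 0.0531, or 0.0192 with the replicate block, and 0.0192 to 0.313 over the alternatives for CPSF3, and -0.90 ± 0.39, adjusted p = 0.172 for UL1). *Pfkfb3*, whose product makes the activator of phosphofructokinase, stood at 33.9 and 28.9 in NI and 154 and 49.5 in shSCR and did not pass (1.46 ± 0.74, adjusted p = 0.145). In Empty it stood at 30.7 and 33.4, against 36.7 and 29.1 in NI (-0.03 ± 0.21, adjusted p = 0.914).

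Aldolase splits the 6-carbon sugar. *Aldoa*, the general isoform, stood at 618 and 564 in NI, 1322 and 1794 in shSCR, 645 and 432 in shCPSF3#1, 547 and 902 in shCPSF3#2, 623 and 786 in shUL1#1 and 515 and 791 in shUL1#2. The gene rose in shSCR (1.38 ± 0.33, adjusted p = 0.0104) and in Empty (0.98 ± 0.15, adjusted p = 0.00525), and fell with CPSF3 (-1.34 ± 0.28, adjusted p = 0.0134) and UL1 knocked down (-1.20 ± 0.28, adjusted p = 0.0361). *Aldoc*, the brain isoform and a HIF target, stood at 1.19 and 1.0004 in NI, 69.9 and 78.7 in shSCR, 5.17 and 5.26 in shCPSF3#1, 15.2 and 22.2 in shCPSF3#2, 34.7 and 25.8 in shUL1#1 and 13.2 and 17.6 in shUL1#2. All 8 knockdown libraries lay between NI and shSCR. Its level rose in shSCR (5.17 ± 0.22, adjusted p = 1.1e-05) and fell with CPSF3 (-2.77 ± 0.19, adjusted p = 0.000508) and UL1 knocked down (-1.74 ± 0.19, adjusted p = 0.00486). Per kb, *Aldoc* stood at 21.4 and 24.1 and *Aldoa* at 454 and 616 in shSCR, so *Aldoa* was the more abundant aldolase there.

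Among the later enzymes, *Tpi1*, which interconverts the triose phosphates, stood at 333 and 349.9 in NI and 599 and 598 in shSCR. It rose in shSCR (0.81 ± 0.20, adjusted p = 0.0135), fell with CPSF3 knocked down (-0.76 ± 0.18, adjusted p = 0.0182) and did not pass with UL1 knocked down (-0.62 ± 0.18, adjusted p = 0.0619, or 0.0333 with the replicate block, and 0.0333 to 0.273 over the alternatives). *Pgk1*, the first step that makes ATP, stood at 630.3 and 608 in NI, 1076 and 1484 in shSCR and 355 to 796 in the knockdowns. The gene rose in shSCR (1.03 ± 0.35, adjusted p = 0.0456), fell with CPSF3 knocked down (-1.29 ± 0.31, adjusted p = 0.0196) and did not pass with UL1 knocked down (-1.14 ± 0.31, adjusted p = 0.0521, or 0.0204 with the replicate block, and 0.0204 to 0.288 over the alternatives). *Gapdh*, often used as a constant reference gene, stood at 2582 and 2515 in NI, 2513 and 3127 in shSCR, 1449.6 and 1153 in shCPSF3#1, 1331 and 2281 in shCPSF3#2, 1547 and 2022 in shUL1#1 and 1357 and 1887 in shUL1#2. Its NI and shSCR libraries overlapped (0.14 ± 0.30, adjusted p = 0.736), and all 8 knockdown libraries lay below both groups. It fell against shSCR with CPSF3 knocked down (-0.90 ± 0.26, adjusted p = 0.0384) and did not pass with UL1 knocked down (-0.74 ± 0.26, adjusted p = 0.111, or 0.0413 with the replicate block, and 0.0413 to 0.445 over the alternatives). *Pgam1*, *Eno1* and *Pkm*, the last steps to pyruvate, passed in neither shSCR nor a knockdown, with log2 changes of 0.21 to 0.33 in shSCR, -0.95 to -0.48 with CPSF3 and -0.72 to -0.53 with UL1 knocked down. *Eno1* was called lower with CPSF3 knocked down under some alternatives (-0.95 ± 0.35, adjusted p = 0.0805, or 0.0163 with the replicate block, and 0.0163 to 0.452 over the alternatives). In Empty, *Pgam1* rose from 221 and 171 to 302 and 275 (0.56 ± 0.15, adjusted p = 0.0282).

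Lactate dehydrogenase has a muscle-type subunit (*Ldha*) and a heart-type subunit (*Ldhb*). Per kb, *Ldha* stood at 282 and 279 in NI and 329 and 371 in shSCR, above *Ldhb* at 16.5 and 18.8 and 127 and 223. *Ldhb* rose in shSCR (3.21 ± 0.64, adjusted p = 0.00482) and in Empty (2.43 ± 0.17, adjusted p = 0.000991). *Ldha* did not pass in shSCR (0.32 ± 0.31, adjusted p = 0.444) and rose in Empty (0.61 ± 0.14, adjusted p = 0.0175). *Ldhb* stood at 199 and 350.1 scaled CPM in shSCR, 62.3 and 87.7 in shCPSF3#1, 53.03 and 166 in shCPSF3#2, 68.7 and 171 in shUL1#1 and 82.8 and 183 in shUL1#2. All 8 knockdown libraries lay below shSCR, and the change was -1.65 ± 0.56, adjusted p = 0.0603, or 0.00270 with the replicate block, and 0.00270 to 0.338 over the alternatives for CPSF3 and -1.18 ± 0.56, adjusted p = 0.205, or 0.0179 with the replicate block, and 0.0179 to 0.659 over the alternatives for UL1. *Ldha* was at -0.28 ± 0.27, adjusted p = 0.444 and -0.35 ± 0.27, adjusted p = 0.428. *Gapdh*, *Ldha*, *Pgk1*, *Pgam1*, *Eno1*, *Mif* and *Aldoa* have near-identical processed copies in the genome, and how reads shared with them were counted is not given in the sources used here, so their levels are uncertain.

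Of the 3 HIF pathway genes, *Egln3* passed. It encodes the prolyl hydroxylase PHD3, which marks HIF for degradation and is itself a HIF target. It stood at 14.9 and 8.94 in NI, 258 and 117 in shSCR, 34.7 and 5.33 in shCPSF3#1, 27.1 and 29.5 in shCPSF3#2, 58.9 and 29.7 in shUL1#1 and 20.3 and 25.2 in shUL1#2. All knockdown libraries lay below shSCR. *Egln3* rose in shSCR (3.80 ± 0.75, adjusted p = 0.00457) and in Empty (3.27 ± 0.46, adjusted p = 0.00406), and its change against shSCR was the lowest of the set in both contrasts. It fell with CPSF3 knocked down (-3.06 ± 0.65, adjusted p = 0.0136) and did not pass with UL1 knocked down (-2.46 ± 0.65, adjusted p = 0.0505, or 0.0121 with the replicate block, and 0.0121 to 0.197 over the alternatives). *Egln1*, the oxygen sensor PHD2, stood at 74.5 and 69.8 in NI, 82.1 and 57.4 in shSCR and 38.9 to 65.2 in the knockdowns, where it did not pass (-0.54 ± 0.24, adjusted p = 0.125, or 0.0161 with the replicate block, and 0.0161 to 0.466 over the alternatives for CPSF3, and -0.59 ± 0.24, adjusted p = 0.150, or 0.0209 with the replicate block, and 0.0209 to 0.443 over the alternatives for UL1). *Hif1a*, the oxygen-regulated subunit, is controlled mainly through its protein. Its mRNA stood at 188 and 216 in NI, 476 and 193 in shSCR, 855 and 294 in shCPSF3#1, 722 and 246 in shCPSF3#2, 855 and 259 in shUL1#1 and 685 and 247 in shUL1#2. Replicate 1 lay above replicate 2 in every day 12 group of the dataset. *Hif1a* passed in neither shSCR (0.59 ± 0.85, adjusted p = 0.606), CPSF3 knockdown (0.60 ± 0.74, adjusted p = 0.554) nor UL1 knockdown (0.54 ± 0.74, adjusted p = 0.664).

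Of the 11 HIF targets in the table, 6 rose in shSCR (*Pdk1*, *Ero1l*, *Bnip3*, *Bnip3l*, *Ndrg1* and *Ddit4*). With CPSF3 knocked down 5 fell (*Pdk1*, *Ero1l*, *Bnip3*, *Ddit4* and *Mif*), or 9 with the replicate block, and with UL1 knocked down 3 (*Ero1l*, *Bnip3* and *Ddit4*), or 8 with the block. Of all genes, 22.5% rose in shSCR. With CPSF3 knocked down 9.35% of all genes fell, or 22.6% with the block, and with UL1 knocked down 3.15%, or 12.8%. *Pdk1* encodes a kinase that shuts pyruvate dehydrogenase and so keeps pyruvate out of the citric acid cycle. It stood at 10.6 and 10.7 in NI, 192 and 327 in shSCR, 62.02 and 57.3 in shCPSF3#1, 69.7 and 165 in shCPSF3#2, 78.9 and 148 in shUL1#1 and 63.1 and 133 in shUL1#2. NI, the knockdowns and shSCR did not overlap. *Pdk1* rose in shSCR (4.43 ± 0.51, adjusted p = 0.000367), fell with CPSF3 knocked down (-1.63 ± 0.44, adjusted p = 0.0302) and did not pass with UL1 knocked down (-1.32 ± 0.44, adjusted p = 0.0947, or 0.0142 with the replicate block, and 0.0142 to 0.446 over the alternatives). In Empty it rose from 7.04 and 29.8 to 269.8 and 198 (3.88 ± 0.61, adjusted p = 0.00543).

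*Bnip3* and *Bnip3l* encode related receptors that mark mitochondria for mitophagy. *Bnip3* stood at 5.96 and 6.56 in NI, 137 and 109 in shSCR, 50.98 and 17.8 in shCPSF3#1, 32.6 and 47.2 in shCPSF3#2, 52.8 and 45.98 in shUL1#1 and 25.6 and 39.8 in shUL1#2. All knockdown libraries lay between NI and shSCR. Its level rose in shSCR (4.09 ± 0.44, adjusted p = 0.000272) and fell with CPSF3 (-1.80 ± 0.38, adjusted p = 0.0131) and UL1 knocked down (-1.60 ± 0.38, adjusted p = 0.0362). *Bnip3l* stood at 56.9 and 69.3 in NI, 226 and 212 in shSCR and 131 to 183 in the knockdowns. It rose in shSCR (1.79 ± 0.17, adjusted p = 0.000152) and was at -0.45 ± 0.14, adjusted p = 0.0533, or 0.0280 with the replicate block, and 0.0197 to 0.197 over the alternatives with CPSF3 and -0.35 ± 0.14, adjusted p = 0.158 with UL1 knocked down. *Ddit4* encodes REDD1, an inhibitor of mTORC1 under stress. It stood at 15.02 and 17.1 in NI, 143 and 135 in shSCR, 86.01 and 51.5 in shCPSF3#1, 81.6 and 82.03 in shCPSF3#2, 86.4 and 64.8 in shUL1#1 and 83.1 and 86.1 in shUL1#2. The gene rose in shSCR (3.04 ± 0.23, adjusted p = 6.9e-05) and fell with CPSF3 (-0.90 ± 0.20, adjusted p = 0.0152) and UL1 knocked down (-0.80 ± 0.20, adjusted p = 0.0420), with all 8 libraries between NI and shSCR. In Empty, against NI libraries at 33.5 and 92.5, it did not pass (106 and 137; 1.09 ± 0.50, adjusted p = 0.126, or 0.0247 with the replicate block, and 0.00338 to 0.365 over the alternatives). *Ero1l*, an oxidase of disulfide bond formation in the endoplasmic reticulum, stood at 97.97 and 82.3 in NI, 566 and 229 in shSCR and 77.1 to 212 in the knockdowns. Its level rose in shSCR (1.99 ± 0.52, adjusted p = 0.0153) and fell with CPSF3 (-1.57 ± 0.45, adjusted p = 0.0370) and UL1 knocked down (-1.81 ± 0.45, adjusted p = 0.0412).

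*Ndrg1*, a stress-response gene, stood at 14.2 and 10.6 in NI, 123 and 68.8 in shSCR and 27.4 to 78.6 in the knockdowns. It rose in shSCR (2.81 ± 0.56, adjusted p = 0.00462) and passed in the knockdowns with the block alone (-1.09 ± 0.48, adjusted p = 0.125, or 0.00329 with the replicate block, and 0.00329 to 0.418 over the alternatives for CPSF3, and -1.04 ± 0.48, adjusted p = 0.198, or 0.00864 with the replicate block, and 0.00864 to 0.497 over the alternatives for UL1). *Mif*, a cytokine gene, stood at 163 and 149.8 in NI, 286 and 354 in shSCR, 92.96 to 241 in the shCPSF3 libraries and 119 to 213 in the shUL1 libraries, and fell with CPSF3 knocked down (-1.30 ± 0.34, adjusted p = 0.0270). With UL1 knocked down it did not pass (-0.96 ± 0.34, adjusted p = 0.108, or 0.0376 with the replicate block, and 0.0376 to 0.414 over the alternatives). *Vegfa*, the growth factor of blood vessels, stood at 103 and 81.6 in NI, 388 and 161 in shSCR and 71.3 to 206 in the knockdowns. It did not pass in shSCR (1.44 ± 0.59, adjusted p = 0.0816), and passed in the knockdowns with the block alone (-1.16 ± 0.51, adjusted p = 0.124, or 0.0106 with the replicate block, and 0.0106 to 0.510 over the alternatives for CPSF3, and -1.18 ± 0.51, adjusted p = 0.175, or 0.0187 with the replicate block, and 0.0187 to 0.539 over the alternatives for UL1). *P4ha1* and *P4ha2*, subunits of collagen prolyl hydroxylase, serve cells that make matrix. *P4ha1* stood at 225 and 257 in NI, 277 and 177 in shSCR and 93.95 to 234 in the knockdowns, and *P4ha2* at 67.6 and 75.98, 167 and 55.3 and 33.9 to 305. Neither passed in shSCR (adjusted p = 0.821 and 0.724). Against shSCR *P4ha1* was at -0.57 ± 0.33, adjusted p = 0.218, or 0.0478 with the replicate block, and 0.0478 to 0.656 over the alternatives for CPSF3 and -0.79 ± 0.33, adjusted p = 0.156, or 0.0244 with the replicate block, and 0.0244 to 0.442 over the alternatives for UL1, and *P4ha2* at 0.14 ± 0.76, adjusted p = 0.899 and -0.51 ± 0.76, adjusted p = 0.692. In Empty *P4ha1* fell from 230.2 and 320.4 to 141 and 106 (-1.15 ± 0.21, adjusted p = 0.00823) and *P4ha2* from 67.2 and 162 to 45.8 and 37.7 (-1.31 ± 0.40, adjusted p = 0.0414), beside the fall of the fibroblast sum, whose part was not tested. *Higd1a*, a mitochondrial inner membrane protein gene, stood at 59.2 and 49.95 in NI and 44.7 and 50.6 in shSCR (-0.19 ± 0.15, adjusted p = 0.352).

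**Figure D4:**
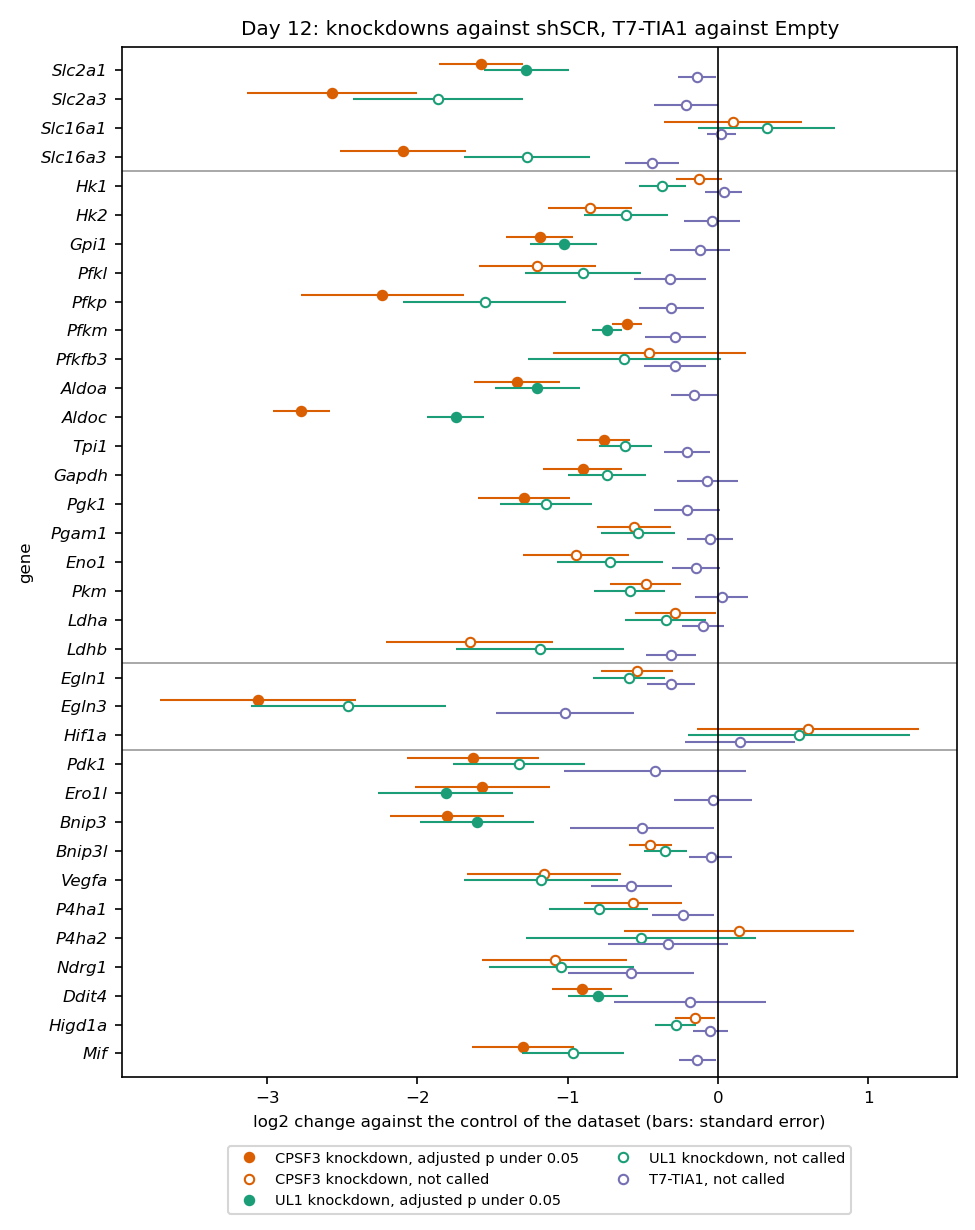
Log2 change of each member at day 12 for CPSF3 and UL1 knockdown against shSCR and for T7-TIA1 against Empty, with bars of 1 standard error; filled symbols passed the test. The knockdown symbols lie left of 0 for 32 and 33 of 35 members, and no T7-TIA1 symbol is filled.

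Between CPSF3 and UL1 knockdown, 0 of 35 members passed in limma (2 at an unadjusted p under 0.05), where 0.0424% of all genes passed (12.8% at an unadjusted p under 0.05), and the median difference was -0.14, with 12 members above 0. Without replicate 2 of shCPSF3#1 the median was 0.0239 with 21 above 0, and over the other single libraries left out it ran from -0.307 to -0.0211. *Aldoc* passed with the block alone, lower with CPSF3 knocked down (-1.03 ± 0.15, adjusted p = 0.0948, or 0.0407 with the replicate block, and 0.0407 to 0.321 over the alternatives). With each shRNA alone against shSCR, 19 members fell in shCPSF3#1 (14.4% of all genes), 2 in shCPSF3#2 (1.12%), 2 in shUL1#1 (1.09%) and 4 in shUL1#2 (1.83%). The 2 shRNAs against *Cpsf3* were not tested against each other. Their *Slc2a3* means were 84.5 ± 37.5 and 358 ± 210.2 scaled CPM (SD, n = 2), and those of *Aldoc* 5.22 ± 0.0626 and 18.7 ± 4.96.

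Against day 0, members that passed in the knockdowns were higher with 1 exception each. With CPSF3 knocked down, 11 of 35 members were higher than NI and *Gapdh* was lower (-0.76 ± 0.26, adjusted p = 0.0432), where 25.7% of all genes were higher and 19.9% lower. With UL1 knocked down, 14 were higher and *Higd1a* was lower (-0.47 ± 0.13, adjusted p = 0.0225), where 23.5% were higher and 19.4% lower. Both contrasts share the NI libraries. *Slc2a1*, *Slc2a3*, *Hk2*, *Pfkm*, *Aldoc*, *Slc16a1*, *Pdk1*, *Bnip3*, *Bnip3l*, *Ndrg1* and *Ddit4* were higher in both, and *Pfkl*, *Pfkp* and *Ldhb* with UL1 knocked down. The log2 change of *Slc2a3* was 3.47 ± 0.57, adjusted p = 0.00196 for CPSF3 and 4.17 ± 0.57, adjusted p = 0.000818 for UL1, and that of *Pdk1* 2.80 ± 0.44, adjusted p = 0.00164 and 3.11 ± 0.44, adjusted p = 0.000983. With 1 or the other NI library left out, 7 members passed with CPSF3 knocked down (22.2% to 26.5% of all genes) and 8 with UL1 knocked down (22.6% to 26.1%).

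Duplicates of the knockdown dataset differed by their number. Among its 5 day 12 groups, replicate 1 stood above replicate 2 in every group for 11 members (*Hk1*, *Pfkfb3*, *Slc16a1*, *Egln1*, *Ero1l*, *Hif1a*, *Bnip3l*, *Vegfa*, *P4ha1*, *P4ha2* and *Ndrg1*; 25.5% of all genes), and replicate 2 above replicate 1 for 4 (*Slc2a3*, *Pfkp*, *Pfkm* and *Ldhb*; 30.6%). Within both replicate numbers, 32 of 35 members were lower in the mean of the shCPSF3 libraries than in shSCR, and 33 in the mean of the shUL1 libraries. The share of all genes on this measure was not counted, so these counts describe the members alone.

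In the overexpression dataset the 2 NI libraries stood apart from each other. Replicate 2 held 477 against 208 scaled CPM of *Hif1a* in replicate 1, 162 against 67.2 of *P4ha2* and 29.8 against 7.04 of *Pdk1*, beside its higher fibroblast sum. Without it, 25 members passed in Empty (62.8% of all genes) and 26 in T7-TIA1 (60.5%) against NI, where 24 (46.5%) and 24 (44.8%) did with it. Between T7-TIA1 and Empty, 0 of 34 members passed in limma (0 at an unadjusted p under 0.05), as did 0% of all genes (4.15% at an unadjusted p under 0.05). In limma fitted on these groups alone, 0 members passed and 9 had an unadjusted p under 0.05, as did 1525 of 9472 genes. The median difference was -0.20, with 30 members below 0 (50.5% of all genes) and both T7-TIA1 libraries below both Empty libraries for 14 (24.7%). Without replicate 1 of Empty the median was -0.0259 with 22 members below 0, and without replicate 2 of Empty it was -0.337 with 31. The differences ran from -1.02 ± 0.46 for *Egln3* (152 and 81.02 in Empty, 42.7 and 68.7 in T7-TIA1) to 0.15 ± 0.37 for *Hif1a* (196 and 207, and 219 and 227). *Slc2a1* stood at 358 and 375 in T7-TIA1 (-0.14 ± 0.12), *Slc2a3* at 555 and 639 (-0.21 ± 0.22), *Pdk1* at 154 and 194 (-0.42 ± 0.61) and *Slc16a3* at 95.6 and 107, both below Empty (-0.44 ± 0.18). Against NI, 21 members were higher in T7-TIA1 and 3 lower, where 22.3% of all genes were higher and 22.4% lower. *P4ha1* (-1.38 ± 0.21, adjusted p = 0.00501), *P4ha2* (-1.64 ± 0.40, adjusted p = 0.0214) and *Egln1* (-0.52 ± 0.16, adjusted p = 0.0442, or 0.0503 with the replicate block) were the lower ones. *Pfkm* (0.66 ± 0.20, adjusted p = 0.0448, or 0.0547 with the replicate block) was also lost with the block, and *Ddit4* was gained (0.91 ± 0.50, adjusted p = 0.191, or 0.0419 with the replicate block, and 0.00538 to 0.616 over the alternatives). In Empty, *Ero1l* was lost with it (0.81 ± 0.26, adjusted p = 0.04999, or 0.0583 with the replicate block). Without replicate 2 of T7-TIA1, 11 members passed (16.7% of all genes), and without replicate 1, 13 (16.6%).

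Neighbouring pathways were followed through further gene lists, whose counts stand against the 22.5% of all genes that rose and 22% that fell in shSCR. These lists too were chosen with earlier results of these data known. Of the further glycolysis genes, 7 of 19 rose and 2 fell in shSCR (median 0.11), led by the glucose transporter *Slc2a8* (5.34 and 4.88 in NI, 23.1 and 25.3 in shSCR; 2.04 ± 0.18, adjusted p = 0.000131) and the neuronal enolase *Eno2* (12.5 and 12.6, and 57.9 and 34.1; 1.75 ± 0.21, adjusted p = 0.000476). Of the genes that bring pyruvate into mitochondrial metabolism, 4 of 11 rose and 3 fell. *Pcx*, pyruvate carboxylase (2.40 ± 0.41), and the pyruvate dehydrogenase kinases *Pdk2* (1.80 ± 0.16) and *Pdk4* (1.59 ± 0.19) rose most, and the pyruvate carrier *Mpc2* (-0.66 ± 0.12) and the dehydrogenase subunits *Dlat* and *Dld* fell. Of 7 pentose phosphate genes *Rpe* rose and *Pgd* fell. Of the HIF regulators, 3 of 7 rose and 0 fell. *Epas1*, the HIF-2 alpha subunit, went from 10.2 and 12.7 to 416 and 125 (4.21 ± 1.42, adjusted p = 0.0419), *Arnt*, the shared beta subunit, from 65.2 and 73.9 to 159.9 and 165 (1.21 ± 0.11, adjusted p = 0.000124), and *Vhl*, which targets the alpha subunits for degradation, from 22.3 and 22.5 to 37.7 and 27.8 (0.51 ± 0.18, adjusted p = 0.0442). Of the further HIF targets, 13 of 27 rose and 3 fell (median 0.92). The mitochondrial adenylate kinase *Ak4* went from 15.03 and 11.6 to 94.8 and 112 (2.87 ± 0.39, adjusted p = 0.000803). *Stc1* went from 4.97 and 4.12 to 655 and 15.3, so that 1 library held most of its level. The collagen cross-linker *Lox*, also made by fibroblasts, fell (-2.51 ± 0.72). Of 5 reprogramming factors and MYC partners in the table, *Mycn* (4.13 ± 0.86), *Mxd4* and *Klf4* rose and *Myc* fell (199.6 and 160.4 to 94.1 and 94.9, -0.91 ± 0.25, adjusted p = 0.0192). At day 12 the values of *Klf4* and *Myc* can include RNA of the induced OSKM cassette, which gene values do not separate. In Empty, 3 of 19 rose and 4 fell of the further glycolysis genes, 2 of 10 rose and 2 fell of the pyruvate genes and 9 of 25 rose and 4 fell of the further HIF targets, against 22.8% and 23.6% of all genes. *Epas1* rose there too (4.20 ± 0.14, adjusted p = 0.000677). *Myc* rose in Empty, from 143 and 91.7 to 200.3 and 194 (0.78 ± 0.22, adjusted p = 0.0321), where it fell in shSCR; the difference between the arms was not tested.

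With CPSF3 knocked down, 1 of 27 rose and 5 fell of the further HIF targets, where 16.7% of all genes rose and 9.35% fell (13 fell with the block, as did 22.6% of all genes). Among them, *Ak4* stood at 94.8 and 112 in shSCR and 15.4 to 45.2 in the shCPSF3 libraries (-1.71 ± 0.34, adjusted p = 0.0108). *Arnt* stood at 159.9 and 165 in shSCR and 98.3 to 121 in the shCPSF3 libraries (-0.54 ± 0.09, adjusted p = 0.00680). *Eno3* (-1.25 ± 0.18), *Pck2*, *Pgm1* and *Rpe* fell, and *Mpc2* (0.65 ± 0.11), *Minpp1* and *Egln2* rose. With UL1 knocked down, 0 of 27 rose and 2 fell of the further HIF targets, where 7.31% of all genes rose and 3.15% fell (8 fell with the block, as did 12.8% of all genes). The 2 were *Ak4* (-1.46 ± 0.34, adjusted p = 0.0342) and *Kdm4b* (-0.65 ± 0.16, adjusted p = 0.0404). *Arnt* (-0.47 ± 0.09, adjusted p = 0.0206), *Bpgm* and *Rpe* fell and *Mpc2* rose (0.62 ± 0.11, adjusted p = 0.0139). *Bsg*, which encodes basigin, the chaperone that brings MCT1 and MCT4 to the membrane, stood at 612 and 577 in shSCR and 389 to 466 in the shUL1 libraries (-0.50 ± 0.11, adjusted p = 0.0278). *Mxd4*, a MYC antagonist, stood at 56.1 and 52.5 in shSCR, 108 to 154 in the shCPSF3 libraries and 101 to 133 in the shUL1 libraries, a rise in both (1.21 ± 0.15, adjusted p = 0.00234, and 1.14 ± 0.15, adjusted p = 0.00737). Between the 2 knockdowns, and between T7-TIA1 and Empty, 0 genes of any list passed.

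AS of the set was measured as percent spliced in (PSI), the share of transcripts that include an exon or intron. By the criteria that the study's methods give for pairs of conditions (mean PSI apart by at least 10 points, the groups' libraries at least 5 points apart, and at least 10 reads), 13 of 1052 covered events of the members differed in shSCR against NI (1.22% of all covered events), 5 of 1064 in Empty (0.679%), 5 of 1090 in CPSF3 knockdown (0.371%), 4 of 1091 in UL1 knockdown (0.315%) and 8 of 1161 in T7-TIA1 against Empty (0.342%). For the last 3 comparisons the study instead took differences of the changes from NI, and its methods state no gap between libraries for these. Its results give a range of at least 5 for each change from day 0 to day 12. Without the gap 6, 6 and 15 events of the members differed there (0.589%, 0.505% and 0.593% of all). A limma test on the log ratio of inclusion to exclusion reads called 76 of 858 events in shSCR (2.93% of all events), 11 in CPSF3 knockdown (0.935%), 4 in UL1 knockdown (0.309%), and 0 of 832 in Empty (222 at an unadjusted p under 0.05; 0.023%) and 0 in T7-TIA1 (58 at an unadjusted p under 0.05; 0.00329%). These counts rested on single libraries: 8 events were called in shSCR without replicate 2 of NI (0.396% of all events), 10 without replicate 1 of NI (0.470%), 19 without replicate 1 of shSCR (0.614%) and 24 without replicate 2 of shSCR (1.19%). In CPSF3 knockdown 3 were called without replicate 1 of shSCR, either library of shCPSF3#1 or replicate 1 of shCPSF3#2 (0.125% to 0.191%), and 5 without replicate 2 of shSCR (0.478%). In UL1 knockdown 1 was called without replicate 1 of shSCR (0.0271%), and 2 without replicate 1 of shUL1#1 or of shUL1#2 (0.0251% to 0.0334%). On PSI in percent, 9 were called in shSCR (1.17% of all events) and 5 with CPSF3 knocked down (0.551%). With the replicate block the test called 19 events in CPSF3 knockdown (1.26% of all events), 9 in UL1 knockdown (0.485%) and 4 in Empty (0.116%). Of the 76 in shSCR, 53 differed by under 1 point and 11 by at least 10 points, in *P4ha1*, *P4ha2*, *Pfkp*, *Pkm* and *Vegfa*. Exons of the genes on which these results turn are shown, from GENCODE transcripts on GRCm38, 5′ to 3′ on the strand of the gene. Within the pairs of *P4ha1* and of *Pkm*, capitals mark the positions at which the 2 exons differ.
P4ha1 first exon, chr10:59354340-59354410, plus strand: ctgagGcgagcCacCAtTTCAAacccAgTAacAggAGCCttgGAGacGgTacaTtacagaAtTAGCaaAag
P4ha1 second exon, chr10:59355350-59355420, plus strand: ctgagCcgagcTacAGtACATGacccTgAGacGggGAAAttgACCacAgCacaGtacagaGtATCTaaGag
P4ha2 first exon, chr11:54126238-54126297, plus strand: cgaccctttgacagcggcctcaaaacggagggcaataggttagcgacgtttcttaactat
P4ha2 second exon, chr11:54126346-54126411, plus strand: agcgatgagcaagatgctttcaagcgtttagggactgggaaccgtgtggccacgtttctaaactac
Vegfa exon of 54 nt, chr17:46022295-46022348, minus strand: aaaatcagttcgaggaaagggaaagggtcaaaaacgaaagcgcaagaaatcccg
Vegfa exon of 132 nt, chr17:46020991-46021122, minus strand: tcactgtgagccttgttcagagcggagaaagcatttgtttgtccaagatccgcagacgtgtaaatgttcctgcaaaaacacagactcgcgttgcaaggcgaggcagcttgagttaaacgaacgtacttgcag
Pkm M1 exon, chr9:59675029-59675195, plus strand: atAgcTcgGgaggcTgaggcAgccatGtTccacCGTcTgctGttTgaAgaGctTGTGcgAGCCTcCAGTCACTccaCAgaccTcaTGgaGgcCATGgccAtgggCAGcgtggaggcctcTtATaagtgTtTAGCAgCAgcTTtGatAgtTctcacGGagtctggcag
Pkm M2 exon, chr9:59675568-59675734, plus strand: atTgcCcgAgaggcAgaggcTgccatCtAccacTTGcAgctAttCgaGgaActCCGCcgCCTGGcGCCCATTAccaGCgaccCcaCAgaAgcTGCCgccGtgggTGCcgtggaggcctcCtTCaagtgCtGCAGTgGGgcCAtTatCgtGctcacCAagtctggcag
All 8 are coding in at least 1 transcript. The *P4ha1* exons are both 71 nt long and differ at 29 positions (59.2% identity), and the *Pkm* exons are both 167 nt long and differ at 64 (61.7%).

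The *P4ha1* pair parted shSCR from the other groups of its dataset. The first exon, exon 9 of P4ha1-201, had a PSI of 34.3 and 33.1 in NI, 19.9 and 17.7 in shSCR, 35.7 and 37.4 in shCPSF3#1, 38.8 and 36.5 in shCPSF3#2, 40.1 and 38.6 in shUL1#1 and 38.7 and 33.3 in shUL1#2, on 895 to 2427 reads a library. Both shSCR libraries lay below the 10 others. The difference was -14.9 points, adjusted p = 0.00455 in shSCR against NI, 18.3 points, adjusted p = 0.00317 in CPSF3 knockdown and 18.8 points, adjusted p = 0.00570 in UL1 knockdown against shSCR. The second exon moved the other way (12.5 points, adjusted p = 0.00611, with 0.00341 to 0.0509 over the alternatives; -17.3 points, adjusted p = 0.00317; -16.02 points, adjusted p = 0.00591, with 0.000696 to 0.0573 over the alternatives), and the PSI of the 2 exons summed to 97.5 to 102 over all 18 libraries. In the overexpression dataset the first exon was at 34.1 and 36.9 in NI, 37.2 and 33.8 in Empty and 40.2 and 40.9 in T7-TIA1 (0.0550 points, adjusted p = 0.991 for Empty against NI). The difference between shSCR and Empty was not tested.

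Of the *P4ha2* exons of 60 and 66 nt, the first was at 71.8 and 74.5 in NI, 42.1 and 55.9 in shSCR, 63.5 to 71.2 in the shCPSF3 libraries and 58.9 to 69.1 in the shUL1 libraries. The second was at 27.3 and 25.7, 56.95 and 47.6, 29.6 to 37.2 and 32.4 to 43.05. Both passed in shSCR (-24.1 points, adjusted p = 0.0256, with 0.00140 to 0.144 over the alternatives, and 25.8 points, adjusted p = 0.0145, with 0.000698 to 0.10002 over the alternatives). With CPSF3 knocked down they were past the PSI criteria but not the read test (17.9 points, adjusted p = 0.0682, or 0.00857 among events with at least 5 reads on each side, and 0.00857 to 0.382 over the alternatives; -17.7 points, adjusted p = 0.0531, or 0.00759 among events with at least 5 reads on each side, and 0.00759 to 0.311 over the alternatives). That limit of 5 reads was chosen after seeing the data. In the overexpression dataset the first exon was at 76.2 and 61.4 in NI, 54.3 and 66.6 in Empty and 61.8 and 64.9 in T7-TIA1, with overlap between the groups. A further exon of *P4ha2*, of 71 nt, was at 2.43 and 2.52 in shSCR and at most 0.830 in the other 16 libraries (2.42 points, adjusted p = 0.00934, with 0.000713 to 0.0822 over the alternatives in shSCR; -2.13 points, adjusted p = 0.00459 with CPSF3 and -2.33 points, adjusted p = 0.00989, with 0.000936 to 0.108 over the alternatives with UL1 knocked down).

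*Vegfa* exons of 54 and 132 nt encode stretches that bind heparin and tie the factor to the matrix. The 54-nt exon was at 6.10 and 6.73 in NI, 14.6 and 20.9 in shSCR (11.4 points, adjusted p = 0.0456, with 0.00368 to 0.211 over the alternatives), 5.73 to 12.8 in the shCPSF3 libraries (-9.73 points, adjusted p = 0.0669, or 0.0110 with the replicate block, and 0.00564 to 0.247 over the alternatives) and 7.28 to 13.8 in the shUL1 libraries (-7.77 points, adjusted p = 0.192, or 0.0363 with the replicate block, and 0.0363 to 0.551 over the alternatives). The 132-nt exon was at 54.3 and 55.5 in NI, 67.7 and 74.2 in shSCR, 50.5 and 47.4 in shCPSF3#1, 52.3 and 60.2 in shCPSF3#2, 54.1 and 58.1 in shUL1#1 and 55.7 and 62.3 in shUL1#2. All 8 knockdown libraries lay below shSCR. It passed in shSCR (16.04 points, adjusted p = 0.0358, with 0.00668 to 0.165 over the alternatives) and with CPSF3 knocked down (-18.3 points, adjusted p = 0.0260, with 0.00175 to 0.104 over the alternatives), and not with UL1 knocked down (-13.4 points, adjusted p = 0.0873, or 0.0468 with the replicate block, and 0.0191 to 0.274 over the alternatives). In Empty it was at 63.6 and 62.8, against 55.8 and 52.7 in NI (8.98 points, adjusted p = 0.286). An intron of 826 nt of *Vegfa* (chr17:46024521-46025346) was retained at 3.85 and 5.33 in NI, 18.7 and 22.6 in shSCR (16.1 points, adjusted p = 0.00644, with 6.09e-05 to 0.0609 over the alternatives), 11.9 to 19.99 in the shCPSF3 libraries and 13.6 to 18.2 in the shUL1 libraries; this intron was chosen after its values were seen. The 6 other covered cassette exons of *Vegfa* stayed above 99 (4 exons) or below 1 (2 exons) in all libraries.

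In *Pfkp*, a coding exon of 153 nt (chr13:6597859-6598011, exon 16 of 22 in Pfkp-207) was at 98.3 and 96.9 in NI and 74.95 and 71.6 in shSCR (-24.3 points, adjusted p = 0.0238, with 0.00251 to 0.137 over the alternatives). It was at 97.03 and 98.9 in the overexpression NI, 70.3 and 78.6 in Empty (-23.5 points, adjusted p = 0.0740, or 0.0242 with the replicate block, and 0.000177 to 0.593 over the alternatives) and 80.9 and 80.95 in T7-TIA1. The shCPSF3 libraries stood at 77.3 to 92.8 (13.2 points, adjusted p = 0.163, or 0.0359 with the replicate block, and 0.0359 to 0.456 over the alternatives) and the shUL1 libraries at 80.4 to 92.6, past the PSI criteria but not the read test (12.4 points, adjusted p = 0.260). The intron after it (9205 nt) was retained at 6.89 and 4.75 in NI, 24.5 and 30.3 in shSCR (21.6 points, adjusted p = 0.0319, with 0.00149 to 0.178 over the alternatives) and 27.8 and 22.4 in Empty, against 5.77 and 3.82 in NI (20.3 points, adjusted p = 0.0683, or 0.0161 with the replicate block, and 0.000992 to 0.593 over the alternatives). An exon of 75 nt within that intron was at 0.910 and 0.520 in NI and 12.7 and 13.2 in shSCR (12.3 points, adjusted p = 0.0447, with 0.00342 to 0.218 over the alternatives), and at 13.9 and 10.1 in Empty.

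*Pkm* encodes pyruvate kinase, with an M1 exon used in muscle and brain and an M2 exon used in embryonic and proliferating cells. The M1 exon, exon 9 of Pkm-202, was at 8.18 and 8.41 in NI, 11.4 and 4.20 in shSCR, 26.5 and 21.1 in shCPSF3#1, 12.1 and 5.77 in shCPSF3#2, 12.7 and 5.08 in shUL1#1 and 9.42 and 6.23 in shUL1#2, on 3043 to 8275 reads a library. It was the minor form in all of them, and only the shCPSF3#1 libraries exceeded 20. It passed in neither shSCR (-0.490 points, adjusted p = 0.876) nor CPSF3 knockdown (8.55 points, adjusted p = 0.308). In the overexpression dataset it was at 10.2 and 11.3 in NI, 5.35 and 5.18 in Empty (-5.50 points, adjusted p = 0.156, or 0.0301 among events with at least 5 reads on each side, and 0.0301 to 0.593 over the alternatives) and 10.8 and 7.43 in T7-TIA1 (3.85 points, adjusted p = 0.785, against Empty). Near the start of the gene, an exon of 155 nt (chr9:59658999-59659153) was at 21.4 and 22.4 in NI, 5.94 and 3.98 in shSCR (-16.96 points, adjusted p = 0.0141, with 0.00125 to 0.0892 over the alternatives, on 86 to 265 reads a library) and 4.22 to 12.1 in the knockdowns, and at 20.7 and 11.8 in the overexpression NI and 6.13 and 6.35 in Empty (-9.98 points, adjusted p = 0.182). Another cassette exon, of 52 nt, was at 0.0400 or below in all 18 libraries. Alternative splice sites of *Pkm* were past the PSI criteria with few reads: an acceptor at 15.2 and 14.1 in NI and 44.02 and 25.2 in shSCR (19.9 points, adjusted p = 0.287), and in the overexpression dataset a donor at 45.2 and 39.5 in NI and 67.2 and 66.1 in Empty (24.4 points, adjusted p = 0.213) and another at 13.2 and 6.36 and 28.6 and 23.2 (16.1 points, adjusted p = 0.330). The 8 events past the PSI criteria in T7-TIA1 were alternative splice sites of *Aldoa*, *Eno1*, *Pdk1* and *Pkm*, on 15 to 58 reads a library, and none of the 4 that had a read test passed it.

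**Figure D5:**
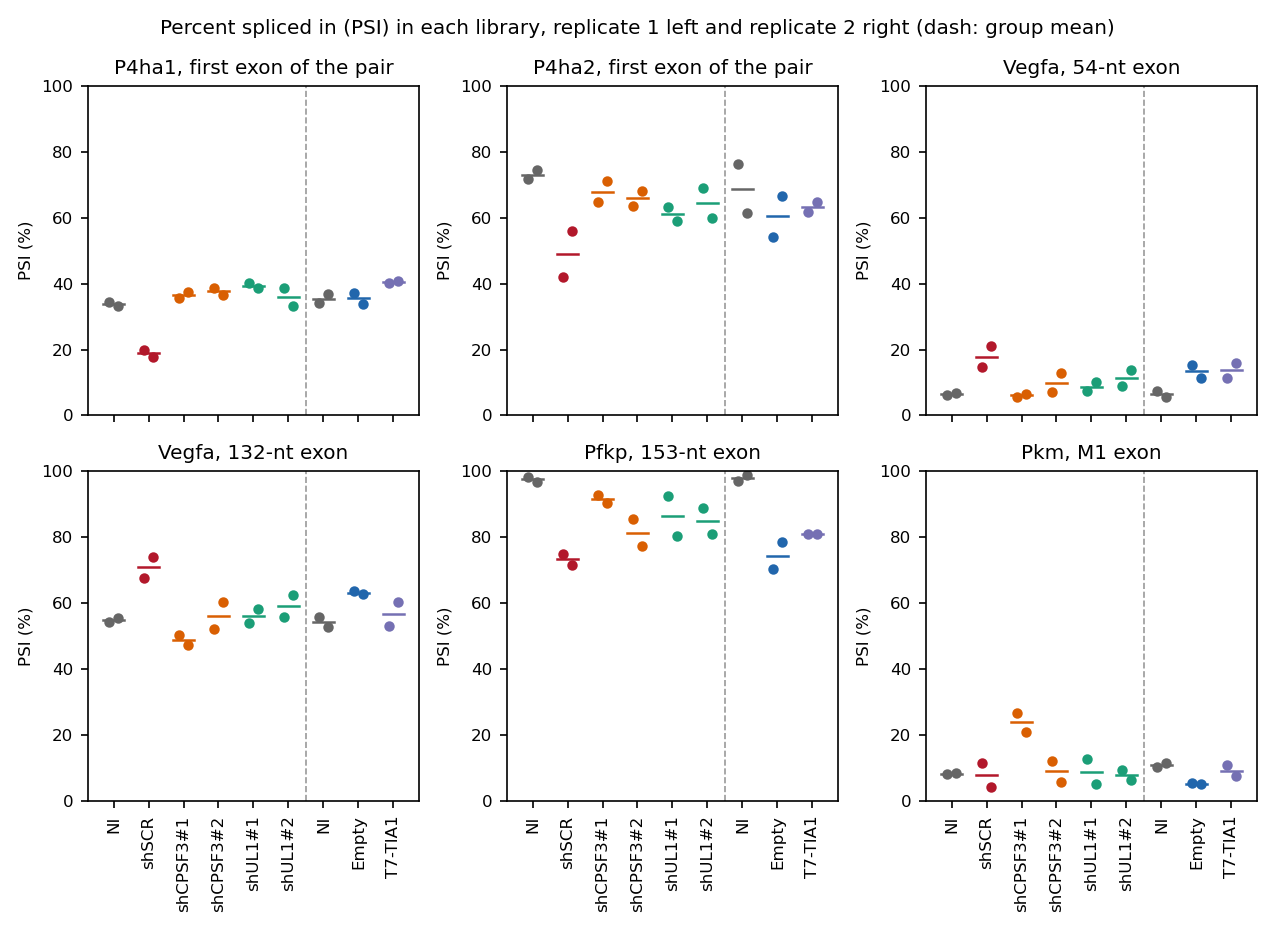
PSI in percent of 6 exons in each of the 18 libraries, with replicate 1 left and replicate 2 right and a dash at the group mean; the dashed line parts the datasets. The first exon of *P4ha1* and that of *P4ha2* are lowest in shSCR within the knockdown dataset, and the *Pkm* M1 exon exceeds 20 only in shCPSF3#1.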

How the data were processed

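RNA-seq was performed on 18 libraries in 9 groups, with 2 libraries per group. Per the labels and the methods, the authors mapped reads to mm10 with STAR 2.7.1a, computed expression with edgeR 3.16.5, and deposited gene values as a signal, CPM scaled between libraries. In each library these values were whole multiples of 1 step (tolerance 0.1), but even the lowest values held many steps, so that 1 step is not shown to be 1 read. Every listed gene had at least 5 scaled CPM in 9 or more of 12 and 6 of 6 libraries. The stated minimum of 0.2 for the coefficient of variation was not applied to these tables, since 3478 of 9435 and 4730 of 9472 genes lay under it. The authors deposited PSI as a percent from vast-tools, run in its strand-specific mode, beside corrected inclusion and exclusion read counts. Reads shared between near-identical gene copies were handled in a way not given in the sources used here.

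Each dataset was fitted with limma 3.58.1 (R 4.3.3) on log2(scaled CPM + 1) over all its groups, with a variance trend. Tests were two-sided, p-values were adjusted over all genes by Benjamini-Hochberg, and 0.05 was the threshold. A fold change on this scale understates that of low genes. The 2 shRNAs of a target were averaged. Splicing reads were tested with weighted limma on log2((inclusion + 1)/(exclusion + 1)), with a variance floor of 0.05. The PSI criteria for pairs of conditions were applied to every comparison, and both shRNAs had to pass. Both tests were tested on simulated data. Other tools were Python 3.11.15, NumPy 2.4.6, pandas 2.3.3, SciPy 1.17.1 and matplotlib 3.10.9.

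The members and gene lists were chosen with earlier results of these data known. Every member was reported, with full statistics at least for those with the largest and smallest adjusted p of each class and for the isoform pairs. Events named were the covered cassette exons of *Pkm* and *Vegfa* and at most 5 others per comparison, those with the largest difference among events past the criteria or the read test. From each pathway list, genes named were taken from the 3 largest rises and 3 largest falls.

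Replicate numbers paired the day 12 libraries of the knockdown dataset: deviations from the group means correlated across genes at r = 0.674 to 0.949 in all 10 pairs of groups. They were treated as pairing the overexpression libraries too, by the same check (r = 0.171 to 0.308 in its 3 pairs of groups). A block on the number was an alternative for every comparison. The other alternatives were pseudocounts of 0.1 and 5, a minimum mean of 10 scaled CPM, other scalings, only the groups compared, no trend, single shRNAs, stricter coverage or PSI limits, PSI in percent, and each library left out in turn.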

Additional observations from a re-analysis of the deposited data

How the results depend on the processing

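No alternative run reversed the direction of a member or event that passed in either fit. Of 4304 values of single members, 3826 kept their direction and side of the threshold, 248 lost their call, 102 gained one and 128 changed sign without passing in either fit, and of 1100 values of single events 952, 43, 20 and 85. Scaling each library to an equal sum moved the median log2 change of all genes to 0.131 in shSCR, 0.106 with UL1 knocked down, 0.192 in Empty and 0.202 in T7-TIA1, all against NI. With only the groups compared in the fit, 1 member passed with CPSF3 and 3 with UL1 knocked down, where 17 and 8 did in the fit over all groups; these fits hold fewer samples. For shRNA #2 against *Cpsf3* alone it was 2, and for shUL1#1 and shUL1#2 alone 2 and 4. With the replicate block, 26 members passed with CPSF3 (49.8% of all genes), 22 with UL1 knocked down (29.3%) and 1 between them (0.742%). Against NI, 21 passed with CPSF3 knocked down (17 higher and 4 lower, 62.6% of all genes). With UL1 knocked down 21 passed against NI (17 higher and 4 lower, 59.3%), and in shSCR 25 (59.4%). The calls gained in shSCR were *Pfkfb3*, *Vegfa* and *Mif*. In the knockdown dataset the numbers did not pair NI with the day 12 groups (r = -0.127 to 0.0218), so the block in these comparisons rests on a shared number alone. In the overexpression dataset the block changed no call of a member beside those of *Ero1l*, *Ddit4*, *Pfkm* and *Egln1*, and in the comparisons of the knockdowns with shSCR no member lost its call with it.

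When single libraries were left out, the count of members ran from 15 to 18 in shSCR, 2 to 21 with CPSF3 and 1 to 4 with UL1 knocked down. Against NI it ran from 7 to 13 and 8 to 17 in the knockdowns, 13 to 27 in Empty and 11 to 27 in T7-TIA1. For events by read test it ran from 8 to 24 in shSCR, 3 to 8 with CPSF3 and 1 to 4 with UL1 knocked down. A lone remaining library was assumed to vary like the other groups. The share of all genes or events that passed also changed with the library left out. The ranges therefore do not describe the members alone.

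A minimum difference of 15 points left 8 of 1052 events in shSCR (0.638% of all events) and 4 of 1161 in T7-TIA1 (0.147%). With UL1 knocked down it left 1 of 1091, and 557 of 407831 of all events. Stricter coverage left 3 of 1013 in Empty (0.571% of all events) and 5 of 1123 in T7-TIA1 (0.249%). No minimum gap gave 11 of 1064 (0.983%) and 15 of 1161 (0.593%). In the read test, PSI in percent gave 9 of 858 events in shSCR (1.17% of all events) and 5 with CPSF3 knocked down (0.551%). Among events with at least 5 reads on each side, a limit chosen after seeing the data, 34 of 231 (13.02% of all such events) were called in shSCR, 11 of 234 (1.87%) in Empty, 15 of 231 (6.60%) with CPSF3 and 11 of 231 (3.50%) with UL1 knocked down; fewer events were tested. With the replicate block the read test called 4 in Empty (0.116% of all events), 19 with CPSF3 (1.26%) and 9 with UL1 knocked down (0.485%). The causes of these shifts were not tested. Count tests on reads derived from the deposited values were planned and not run.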
